A study of Homo sapiens with 12 samples.

Results

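The neuroendocrine and synaptic secretion genes described here are 9 of 20046 named genes on the array, DDC, CALCA, CPLX3, CHGA, CHGB, SYP, ENO2, SCG2 and INSM1. They were chosen by name, as every probe of the Illumina HT-12 v4 array whose annotated symbol is one of them, which gave 11 of 47323 probes: 3 for CALCA and 1 for each other gene. All 11 were among the 19172 probes that were above background on at least 2 arrays, where above background means a detection p-value under 0.01. The genes were picked with earlier results of these data known. Counts among them, set beside shares of all probes, are therefore no test of the list. RNA was measured on 12 arrays in 22Rv1, a line from a human prostate carcinoma, grown in RPMI with 10% fetal bovine serum. All 3 sublines carried a short hairpin RNA that doxycycline switches on: hairpin 1 (HNF4Gsh1) or hairpin 2 (HNF4Gsh2) against HNF4G, a nuclear receptor, or a scrambled hairpin (SCR). The 6 groups, of 2 arrays each, were hairpin 1 with doxycycline for 3 days, hairpin 1 without it, hairpin 2 with doxycycline for 3 days, hairpin 2 without it, the scrambled hairpin with doxycycline for 3 days and the scrambled hairpin without it. The samples without doxycycline received vehicle, per the series design. The labels do not say whether a subline was 1 clone or a pool, nor whether replicates were separate cultures, and each p-value therefore covers only array-to-array spread, possibly technical. With 2 arrays a group, groups often fail to overlap without any difference, so a lack of overlap below is only a description. Its share over all probes was not counted.

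Neuroendocrine cells are scattered in the prostate epithelium and store peptides and amines in dense-core granules, which they release by regulated exocytosis. Granins fill these granules, synaptophysin sits in the membrane of small vesicles, and complexins bind the SNARE complexes that fuse vesicles with the cell membrane. In prostate cancer such genes serve as markers of neuroendocrine differentiation, in which tumour cells lose luminal features and the androgen receptor programme.

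DDC fell with doxycycline in both HNF4G hairpin sublines, to below background on all 4 induced arrays. In the scrambled subline it changed by -0.51, which did not pass. No difference between a hairpin response of DDC and its scrambled response passed either. CPLX3 was above background in the hairpin 2 subline alone, with or without doxycycline. CALCA was lower in both hairpin sublines than in the scrambled subline before any induction. CHGB, SYP, ENO2 and SCG2 were above background on all 12 arrays, and no response of theirs to doxycycline passed the test. CHGA and INSM1 lay near background throughout. These are bulk samples, in which fewer cells of a type and less RNA per cell cannot be told apart.

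Of the markers of luminal prostate epithelium, 12 of 15 genes on the array were above background on all 12 arrays, KLK2 and KLK3 on some and TRPM8 on none. The basal keratins (0 of 3 genes) were below background on every array, as were the defining blood genes PTPRC and CD3E and the collagens COL1A1, COL1A2 and COL3A1. CD68 and HBA1 (2 of 9 blood genes) and ACTA2 (1 of 10 stromal genes) were above background on all arrays. The blood gene CD14 and the stromal genes DCN and LUM were above background on some. Of the neuroendocrine markers, 4 of 7 were above background on all arrays and NCAM1 on none. The mean log2 intensity of the neuroendocrine markers ran from 5.95 to 6.05 in the hairpin arrays and from 5.87 to 6.01 in the scrambled arrays, and that of the luminal markers from 8.16 to 8.48 and from 8.0 to 8.10. Of 18 kept luminal probes, 3 were higher in induced hairpin 1 and 5 in induced hairpin 2 than in induced scrambled cells (limma). Of all probes 2.65% and 4.07% were called there, in either direction. In each uninduced hairpin subline 1 of the 18 was higher than in uninduced scrambled cells, where 0.334% and 0.250% of all probes were called. In the hairpin 2 response 1 of the 18 rose, where 0.970% of all probes were called. None of the 18 passed as lower in these comparisons. Of 3 kept stromal probes 1 was higher in each induced hairpin subline than in induced scrambled cells. Of 4 kept blood probes 1 was lower than in induced scrambled cells for hairpin 1 and 0 for hairpin 2. The shares of all probes called there were again 2.65% and 4.07%. The dimmest array, scrambled with doxycycline, replicate 1, had a median intensity of 92.5 and 14959 probes above background, against 97.2 to 108 and 15783 to 18293 in the other 11. The probe of HNF4G, the targeted gene, read 4.73 and 4.83 on the log2 scale with doxycycline, against 6.30 and 6.18 without, in the hairpin 1 subline. In the hairpin 2 subline it read 4.71 and 4.35 with doxycycline, against 6.40 and 6.49 without. It was below background on all 4 induced hairpin arrays, at least 2.08-fold lower with hairpin 1 (limma, adjusted p = 0.00184) and at least 2.49-fold lower with hairpin 2 (adjusted p = 0.000323). In the scrambled subline it read 5.81 and 6.19 with doxycycline, against 6.35 and 6.13 without (change -0.24, adjusted p = 0.712). The HNF4G response minus the scrambled response was -1.45 for the mean of both hairpins (limma, adjusted p = 0.0155) and -1.68 for hairpin 2 (adjusted p = 0.0228). For hairpin 1 it was -1.23 and did not pass (adjusted p = 0.1055).

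Upstream sequences are shown for the 3 genes whose probes passed a test against their own subline or the uninduced scrambled cells. DDC passed against its own subline, and CPLX3 and CALCA passed against the uninduced scrambled cells. Each sequence is the 250 bases before a RefSeq transcript start in GRCh38.p14, 5′ to 3′ on the gene's strand, with motif matches in capitals. RefSeq lists 2 starts for DDC, 4334 bases apart on the minus strand of chromosome 7. The first window is chr7:50565406-50565655 and the second chr7:50561072-50561321. The CALCA window is chr11:14972352-14972601 on the minus strand, and the CPLX3 window is chr15:74826377-74826626 on the plus strand.
DDC upstream start: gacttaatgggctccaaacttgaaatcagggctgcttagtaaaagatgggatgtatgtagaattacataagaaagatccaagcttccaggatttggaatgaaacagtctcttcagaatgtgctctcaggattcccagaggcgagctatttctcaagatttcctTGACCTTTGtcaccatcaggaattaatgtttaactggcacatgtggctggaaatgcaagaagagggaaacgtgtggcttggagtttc
DDC downstream start: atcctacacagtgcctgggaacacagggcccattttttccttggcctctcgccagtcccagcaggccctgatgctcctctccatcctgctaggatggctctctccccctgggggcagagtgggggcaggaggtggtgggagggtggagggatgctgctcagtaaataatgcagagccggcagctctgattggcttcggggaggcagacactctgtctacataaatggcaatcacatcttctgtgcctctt
CALCA: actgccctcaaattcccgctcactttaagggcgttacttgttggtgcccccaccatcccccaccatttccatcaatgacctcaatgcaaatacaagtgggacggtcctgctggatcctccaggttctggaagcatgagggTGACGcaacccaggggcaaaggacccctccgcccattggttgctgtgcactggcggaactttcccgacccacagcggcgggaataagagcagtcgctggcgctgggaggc
CPLX3: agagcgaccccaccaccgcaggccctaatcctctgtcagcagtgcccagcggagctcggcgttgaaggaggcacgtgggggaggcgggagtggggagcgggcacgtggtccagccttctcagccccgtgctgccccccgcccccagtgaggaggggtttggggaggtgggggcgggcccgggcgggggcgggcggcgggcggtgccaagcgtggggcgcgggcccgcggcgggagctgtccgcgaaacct
The search covered both strands for the full HNF4 direct repeat and its shorter forms CAAAGTCCA and CAAAGGTCA, for GTTAAT, part of the HNF1 site, and for TGACGTCA and its shorter form TGACG, the cAMP response element. The direct repeat contains CAAAGGTCA, and TGACGTCA contains TGACG. The motifs were picked after these sequences had been read. The upstream DDC window held 1 match, TGACCTTTG, the reverse complement of CAAAGGTCA, 87 to 79 bases before the start, and 0.339% of 35116 windows of this length hold that motif. The CALCA window held TGACG 110 to 106 bases before the start, a motif in 21.2% of windows. These letters were not in the downstream DDC window or the CPLX3 window. Among the other genes, CHGA (chr14:92922900-92923149) held TGACGTCA 54 to 47 bases before the start, a motif in 1.65% of windows. A match is a description of the letters and not a binding site. The table gave windows for 6 of the 9 genes, and CHGB, SCG2 and INSM1 were not among them.

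**Figure D1:**
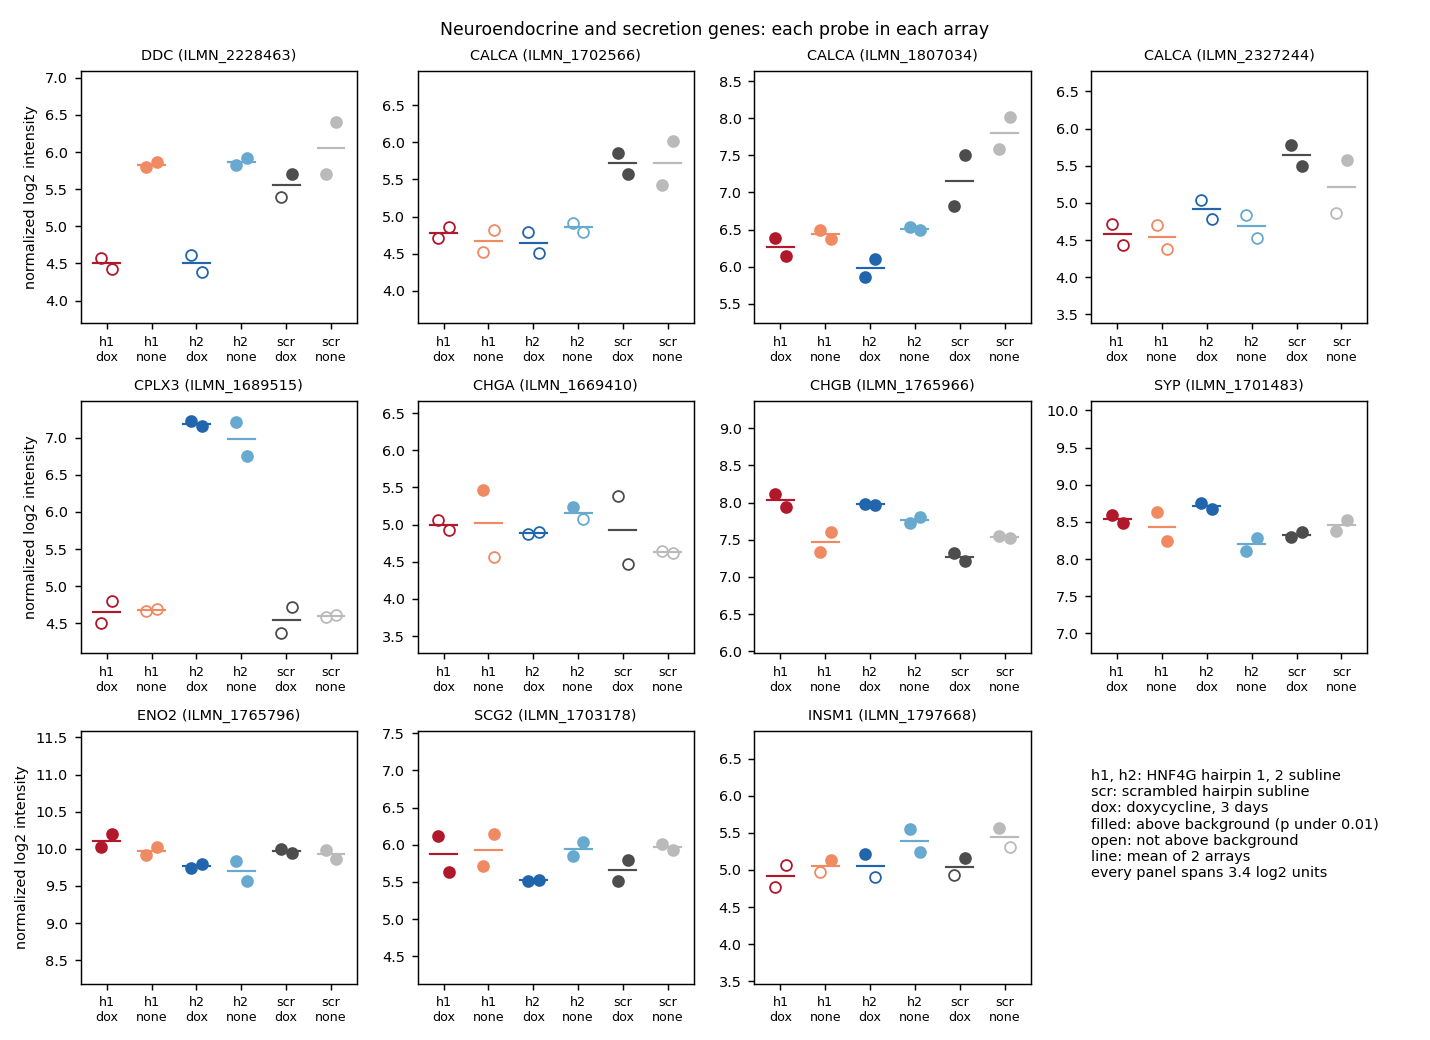
Normalised log2 intensity of each of the 11 probes (vertical axis, every panel spanning the same width) in each of the 12 arrays, by subline and doxycycline. Filled points were above background (detection p under 0.01), open points were not, and a line marks the mean of the 2 arrays. The 4 open DDC points of the induced hairpin sublines sit between 4.39 and 4.62, and the 4 filled CPLX3 points of the hairpin 2 subline between 6.75 and 7.22.

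DDC (chr7:50458442-50565405, gene ID 1644, probe ILMN_2228463) encodes aromatic L-amino acid decarboxylase, which makes dopamine from L-DOPA and serotonin from 5-hydroxytryptophan. In the hairpin 1 subline its normalised log2 intensity was 4.58 and 4.42 with doxycycline, against 5.80 and 5.86 without. In the hairpin 2 subline it was 4.62 and 4.39 with doxycycline, against 5.82 and 5.92 without. The induced and uninduced arrays did not overlap in either subline, and the 4 induced arrays were all below background while the 4 uninduced ones were all above it. The fitted change was -1.33 ± 0.21 with hairpin 1 (limma, SE, adjusted p = 0.0103) and -1.36 ± 0.21 with hairpin 2 (adjusted p = 0.00668). Because the induced level was only bounded, the fall was at least 1.56-fold with hairpin 1 and at least 1.67-fold with hairpin 2. The bound sets the mean of the bright group against, for each dim array, the higher of the lowest signal above background and the probe's own. DDC was the 1 of 11 probes called with hairpin 1, where 0.589% of all tested probes were called, and the 1 of 11 called with hairpin 2, where 0.970% were.

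In the scrambled subline DDC read 5.40 and 5.70 with doxycycline, against 5.71 and 6.40 without, and the first of these arrays, the dimmest of the series, was below background for it. The groups nearly met, at 5.70 and 5.71, without overlapping, and the change, -0.51 ± 0.21, did not pass (limma, adjusted p = 0.465). Of all probes 0.0313% were called there and 0 of these 11. By unadjusted p under 0.05 these were 2 of 11, against 9.52% of all probes. The mean hairpin response minus the scrambled response was -0.84 ± 0.26 for DDC (95% interval -1.39 to -0.28) and did not pass after adjustment (adjusted p = 0.239). The differences of the responses called 0 of 11 probes. Of all probes they called 0.209% for the mean of both hairpins, 0.177% for hairpin 1 alone and 0.214% for hairpin 2 alone, each minus scrambled. By unadjusted p under 0.05 these 3 counts were 2, 2 and 3 of 11 probes, against 11.61%, 10.3% and 12.35% of all probes. The hairpin 1 response minus the hairpin 2 response was 0.04 for DDC, with an interval of -0.60 to 0.68 (0 of 11 probes called, 0.0417% of all; by unadjusted p under 0.05, 0 of 11 and 10.3% of all). The calls of DDC were lost in 4 of 12 fits that left out 1 array, each time an array of the subline tested, with an adjusted p of up to 0.104 for hairpin 1 and 0.0934 for hairpin 2. Without background correction the changes were -0.48 and -0.50 and still passed.

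**Figure D2:**
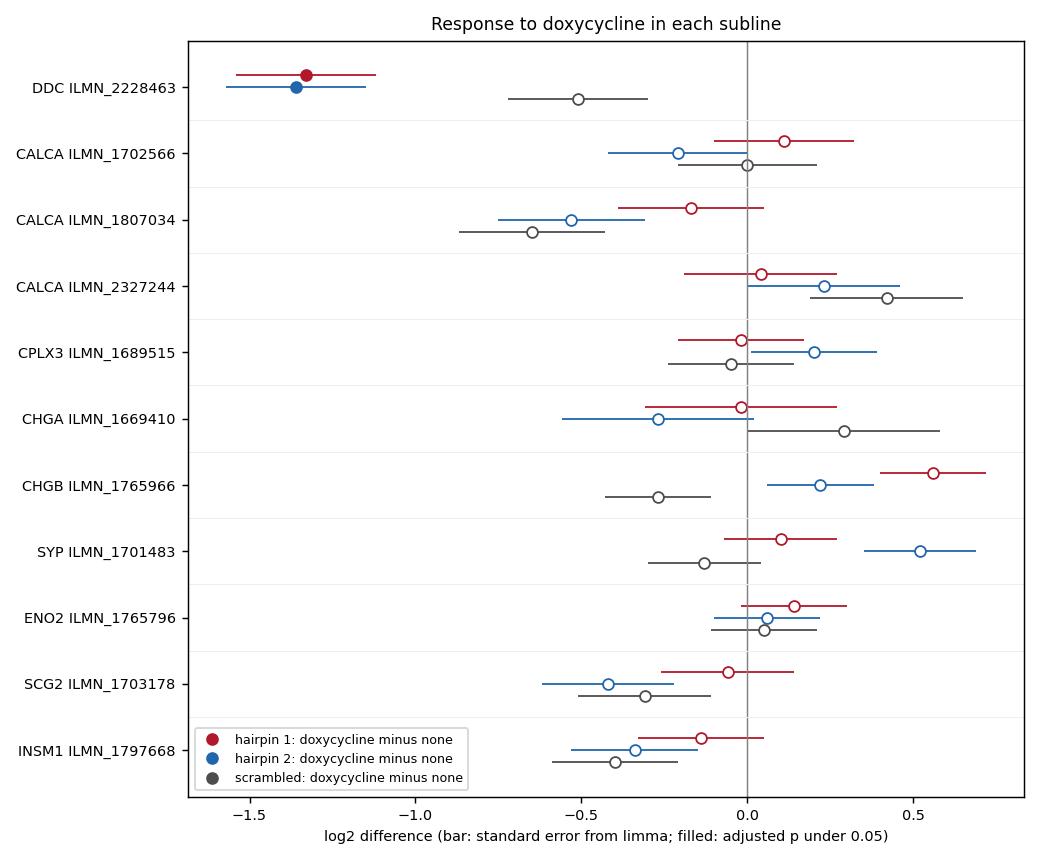
Change in log2 intensity with doxycycline (horizontal axis, doxycycline minus none) for each probe in the hairpin 1, hairpin 2 and scrambled sublines, with bars of 1 standard error from limma and filled points where the adjusted p was under 0.05. The 2 filled points belong to DDC, at -1.33 with hairpin 1 and -1.36 with hairpin 2.

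The other genes that make or handle monoamines were mostly below background. Of 19 such genes on the array, 6 were above background on all arrays, DDC on some, and 12 on none, including the tyrosine and tryptophan hydroxylases TH, TPH1 and TPH2 that supply the substrates of DDC, and the vesicular transporters SLC18A1 and SLC18A2. Of the 10 kept probes of this list other than that of DDC, 0 passed in either hairpin response (limma). By unadjusted p under 0.05 these were 1 and 2, where 11.1% of all probes passed with hairpin 1 and 13.9% with hairpin 2. The median change of the list's 11 probes was -0.08 with hairpin 1 and 0.05 with hairpin 2, against 0.01 and 0.00 for all probes. GCH1, which makes the cofactor of the hydroxylases, had the smallest p of the others in the mean hairpin response minus scrambled, with changes of -0.71 (adjusted p = 0.295) and -0.51 (adjusted p = 0.379) at 2 of its probes. MAOA, which oxidises monoamines, was -0.73 in induced hairpin 1 cells minus induced scrambled cells (adjusted p = 0.0359), a call kept in 6 of 12 fits without 1 array (adjusted p up to 0.195) and lost under median scaling.

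CALCA (chr11:14966668-14972351, gene ID 796) encodes calcitonin and, by alternative splicing, calcitonin gene-related peptide. Its 3 probes are annotated to different RefSeq transcripts, and whether each reads only 1 of them is not given in the sources used here. Probe ILMN_1807034 was above background on all 12 arrays. It read 6.50 and 6.38 in uninduced hairpin 1 cells and 6.53 and 6.50 in uninduced hairpin 2 cells, against 7.59 and 8.02 in uninduced scrambled cells. The hairpin sublines did not overlap with the scrambled one. The difference from the scrambled subline was -1.37 ± 0.22 for hairpin 1 (adjusted p = 0.0200) and -1.29 ± 0.22 for hairpin 2 (adjusted p = 0.0319). Both differences use the same 2 scrambled arrays. This was the 1 of 11 probes called for hairpin 1 (0.334% of all probes) and, with CPLX3, 1 of 2 called for hairpin 2 (0.250% of all probes). The luminal probe count above was 1 of 18 higher in each of these comparisons, and its part in these differences was not tested.

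With doxycycline, ILMN_1807034 read 6.39 and 6.14 in hairpin 1 cells and 5.86 and 6.11 in hairpin 2 cells, against 6.82 and 7.50 in scrambled cells. The difference was -0.89 (adjusted p = 0.0527) for hairpin 1, which did not pass, and -1.17 (adjusted p = 0.0104) for hairpin 2. No response of CALCA to doxycycline passed: at this probe it was -0.17 with hairpin 1, -0.53 with hairpin 2 and -0.65 in the scrambled subline (adjusted p = 0.840, 0.299 and 0.384). The uninduced hairpin 1 call was lost without either uninduced hairpin 1 array or without uninduced scrambled replicate 2 (difference -1.58 to -1.16 over all such fits, adjusted p up to 0.219). The uninduced hairpin 2 call was lost without any 1 of the 4 arrays compared (-1.50 to -1.08, adjusted p up to 0.248), and the induced one without hairpin 2 replicate 1 or scrambled replicate 2 (-1.51 to -0.83, adjusted p up to 0.110). Without background correction the uninduced differences were -0.87 and -0.83, and both passed. With no filter on detection neither passed (adjusted p = 0.0696 and 0.105).

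The other CALCA probes were above background in scrambled arrays alone, so both entered the test only through the subline where they read higher, and their calls lend no support to those of ILMN_1807034. ILMN_1702566 read 4.71 and 4.86 in induced and 4.53 and 4.82 in uninduced hairpin 1 cells, and 4.79 and 4.51 in induced and 4.92 and 4.79 in uninduced hairpin 2 cells. In the scrambled subline it read 5.86 and 5.58 with doxycycline and 5.42 and 6.02 without, all 4 above background. Its difference from scrambled did not pass without doxycycline, at -1.04 (adjusted p = 0.0578) for hairpin 1 and -0.86 (adjusted p = 0.143) for hairpin 2. It passed with doxycycline, at least 1.45-fold lower with hairpin 1 (adjusted p = 0.0304) and at least 1.50-fold lower with hairpin 2 (adjusted p = 0.0117). The third probe, ILMN_2327244, read 4.72 and 4.44 in induced and 4.70 and 4.38 in uninduced hairpin 1 cells. It read 5.04 and 4.79 in induced and 4.84 and 4.53 in uninduced hairpin 2 cells. It was above background on 3 scrambled arrays, reading 5.78 and 5.50 with doxycycline and 4.86 and 5.58 without, and passed for induced hairpin 1 cells alone (at least 1.37-fold lower, adjusted p = 0.0293; hairpin 2 adjusted p = 0.108). For hairpin 1 both of these calls were lost without any 1 of the 4 arrays compared (adjusted p up to 0.208 and 0.199). They were also lost with no filter on detection (adjusted p = 0.0738 and 0.0858), without background correction (0.109 and 0.0623) and with the authors' deposited values, and that of ILMN_1702566 under median scaling (0.0593). For hairpin 2 the call of ILMN_1702566 was lost without hairpin 2 replicate 2 or scrambled replicate 1 (adjusted p of 0.117 and 0.104) and held with no filter (0.0318). All 3 probes were lower on average in both hairpin sublines than in the scrambled one. For these 2 that direction adds no support either, as they were kept through scrambled arrays alone.

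Of the calcitonin family and its receptors, CALCB, the CGRP paralog 101.2 kb from CALCA, was above background on all arrays, while the receptors CALCR and CALCRL were below background on all. RAMP1, which joins CALCRL to form the CGRP receptor, read 9.17 and 9.07 with hairpin 1 and doxycycline and 9.19 and 9.0 with hairpin 2 and doxycycline, against 10.20 and 10.41 in induced scrambled cells. These groups did not overlap, and the differences were -1.19 (adjusted p = 0.00236) and -1.21 (adjusted p = 0.00198). The mean RAMP1 response minus scrambled was -1.06 (adjusted p = 0.0839) and did not pass. ADM, the vasodilator adrenomedullin, was 0.73 log2 units higher in induced hairpin 2 cells than in induced scrambled cells (adjusted p = 0.0371). The RAMP1 calls held in 12 of 12 fits without 1 array and that of ADM in 5 of 12 (adjusted p up to 0.188), and ADM did not pass with no filter (0.0514). Of the 6 kept probes of the list that are not CALCA probes, 0 passed in the doxycycline responses or between uninduced sublines (limma). By unadjusted p under 0.05, 2 did with hairpin 1, 2 with hairpin 2, 1 in the scrambled subline and 2 in uninduced hairpin 2 minus scrambled cells, against 11.1%, 13.9%, 9.52% and 9.93% of all probes.

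CPLX3 (chr15:74826627-74831802, gene ID 594855, probe ILMN_1689515) encodes complexin 3, known in mice from the ribbon synapses of the retina. In hairpin 2 cells it read 7.22 and 7.15 with doxycycline and 7.21 and 6.75 without. In hairpin 1 cells it read 4.51 and 4.80 with doxycycline and 4.66 and 4.69 without, and in scrambled cells 4.37 and 4.72 with doxycycline and 4.59 and 4.61 without. The 4 hairpin 2 arrays were above background and the other 8 were below it, so the lowest hairpin 2 array stood clear of every other, and the probe entered the test only through hairpin 2. With no filter its uninduced difference from scrambled still passed (adjusted p = 0.00344). Without doxycycline hairpin 2 cells were at least 3.29-fold higher than scrambled cells (2.39 ± 0.19, adjusted p = 0.000181), and with doxycycline at least 3.64-fold higher (2.64, adjusted p = 7.53e-06). Uninduced hairpin 1 cells were at least 3.49-fold lower than uninduced hairpin 2 cells (-2.31 ± 0.19, adjusted p = 0.000270). CPLX3 was the 1 probe called between the uninduced hairpin sublines, out of 11 here and of 19172 in all (0.00522%). Under median scaling, which gives all arrays 1 median, 3 probes were called there, and with detection on at least 6 arrays CPLX3 was not tested.

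Doxycycline left no called change in CPLX3: the responses were -0.02 with hairpin 1, 0.20 with hairpin 2 and -0.05 in the scrambled subline, with an interval of -0.21 to 0.61 for hairpin 2. The hairpin 2 differences stayed past the threshold in 12 of 12 fits without 1 array and in 7 of 7 other settings in which CPLX3 was tested. Without background correction, nearly the same setting as the authors' values, the uninduced difference from scrambled was 1.03 (adjusted p = 2.26e-05). On chromosome 15, 13 kept probes of 12 genes lay within 250 kb of CPLX3, and 0 of them passed between either uninduced hairpin subline and the scrambled one (limma; 1 in each by unadjusted p under 0.05). Their differences for hairpin 2 ran from -0.19 to 1.09, the highest being MPI, a mannose phosphate isomerase, 58.2 kb away (1.09, adjusted p = 0.261), which was 1.03 for hairpin 1 (adjusted p = 0.299). The neighbours SCAMP2 and ULK3, 11.9 and 4.3 kb away, stood at -0.02 and 0.04 for hairpin 2.

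**Figure D3:**
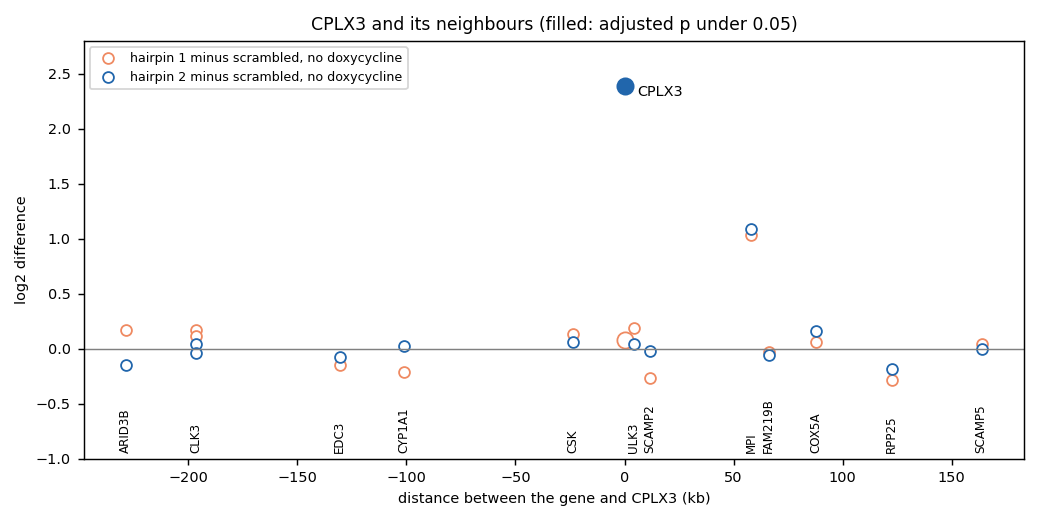
Difference in log2 intensity from the uninduced scrambled subline (vertical axis) for CPLX3 and the 13 kept probes within 250 kb, by distance between the genes in kb (horizontal axis), for uninduced hairpin 1 and hairpin 2 cells. The filled point is CPLX3 in hairpin 2 cells at 2.39, and the next highest points are those of MPI at 1.09 and 1.03.

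SYP (chrX:49187815-49200193, gene ID 6855) encodes synaptophysin, a membrane protein of synaptic and synaptic-like vesicles. It read 8.75 and 8.68 in hairpin 2 cells with doxycycline, against 8.11 and 8.29 without. It read 8.59 and 8.49 in hairpin 1 cells with doxycycline, against 8.63 and 8.24 without, and 8.30 and 8.36 in scrambled cells with doxycycline, against 8.38 and 8.53 without. The hairpin 2 arrays did not overlap, but the response of 0.52 ± 0.17 did not pass (adjusted p = 0.180). It passed without background correction, in the deposited normalised values too, at 0.0466 as the lowest adjusted p. Induced hairpin 2 minus induced scrambled cells was 0.39 (adjusted p = 0.232), which passed under median scaling alone (0.0463).

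Among 57 synaptic vesicle and exocytosis genes on the array, 29 were above background on all arrays, 13 on some and 15 on none. Of 52 kept probes 1 fell with hairpin 2, where 0.970% of all probes were called, and 0 changed with hairpin 1 (limma; 8 by unadjusted p under 0.05, against 11.1% of all probes). The median changes were 0.12 and 0.08, against 0.00 and 0.01 for all probes. The probe that fell was that of SYNGR3, synaptogyrin 3, a vesicle membrane protein related to synaptophysin. SYNGR3 read 5.12 and 5.08 in hairpin 2 cells with doxycycline, both below background, against 5.97 and 6.38 without. In hairpin 1 cells it read 6.34 and 6.23 with doxycycline, against 6.12 and 6.09 without, and in scrambled cells 6.64 and 6.49 with doxycycline, against 6.21 and 6.19 without. The 2 induced hairpin 2 arrays were thus the lowest of the 12. The hairpin 2 response was -1.08 (adjusted p = 0.00668, at least 2.06-fold lower) and differed from the scrambled response by -1.45 (adjusted p = 0.0246). The response of SYNGR3 kept its call in 9 of 12 fits without 1 array (adjusted p up to 0.0963) and the difference in 4 of 12 (up to 0.126), and under median scaling the difference was lost (adjusted p = 0.101). The comparisons of induced cells were added after the data had been seen. For hairpin 2 minus scrambled 5 of the 52 probes were called, against 4.07% of all probes. For hairpin 1 minus scrambled 0 were, against 2.65%. The 5 were those of CPLX3, SYNGR3 and 3 further genes. These were SNAP23 (0.88, adjusted p = 0.0205), a SNARE of the cell membrane, STXBP5 (0.78, adjusted p = 0.0129), a syntaxin-binding protein, and SV2A (-1.02, adjusted p = 0.0273), a vesicle glycoprotein. SNAP23 and STXBP5 each kept their call in 8 of 12 fits without 1 array, losing it without any 1 of the 4 arrays compared (adjusted p up to 0.148 and 0.1004). SV2A kept its call in 9 of 12 (up to 0.183) and lost it without background correction (0.0505), with the authors' deposited values and with no filter (0.0702). The other complexins on the array were not called: CPLX1 was 0.03 and CPLX2 -0.84 in uninduced hairpin 2 minus scrambled cells (adjusted p = 0.977 and 0.357), and CPLX4 was below background on all arrays.

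CHGB (chr20:5911510-5925353, gene ID 1114) encodes chromogranin B, a granin of dense-core granules. It read 8.12 and 7.94 in hairpin 1 cells with doxycycline, against 7.33 and 7.61 without. In hairpin 2 cells it read 7.98 and 7.97 with doxycycline, against 7.72 and 7.80 without, and in scrambled cells 7.32 and 7.22 with doxycycline, against 7.55 and 7.53 without. Induced arrays read higher than uninduced ones in both hairpin sublines and lower in the scrambled one. They did not overlap in any subline, which is common with 2 arrays a group. The changes, 0.56 ± 0.16 with hairpin 1, 0.22 with hairpin 2 and -0.27 in the scrambled subline, did not pass (adjusted p = 0.161, 0.590 and 0.609). The mean hairpin response minus the scrambled response was 0.66 ± 0.19 and did not pass either (adjusted p = 0.217).

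Between induced cells CHGB did pass, at 0.76 for hairpin 1 minus scrambled (adjusted p = 0.0203) and 0.71 for hairpin 2 minus scrambled (adjusted p = 0.0254). Both comparisons use the same 2 induced scrambled arrays, one of them the dimmest of the series, and each call was lost without any 1 of the 4 arrays compared (adjusted p up to 0.178 and 0.136). These comparisons were added after the data had been seen. They called 4 of 11 probes for hairpin 1 (DDC, CHGB and 2 of CALCA), where 2.65% of all probes were called, and 5 of 11 for hairpin 2 (DDC, CPLX3, CHGB and 2 of CALCA), where 4.07% were. Some of these probes entered the test only through the group where they read high. For hairpin 1 they were the 2 CALCA probes, and for hairpin 2 CPLX3 and CALCA probe ILMN_1702566. The genes were also picked with earlier results of these data known, so these counts are no test of the list. The luminal probes higher in the same comparisons, 3 and 5 of 18, are given above, and their part in these differences was not tested. DDC differed by -1.05 (adjusted p = 0.0170) and -1.04 (adjusted p = 0.0140) there, and lay above background on 1 of the 2 induced scrambled arrays. The DDC calls were lost without either induced hairpin array or without induced scrambled replicate 2 (adjusted p up to 0.123 and 0.124), and for hairpin 1 also without background correction (0.0628).

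**Figure D4:**
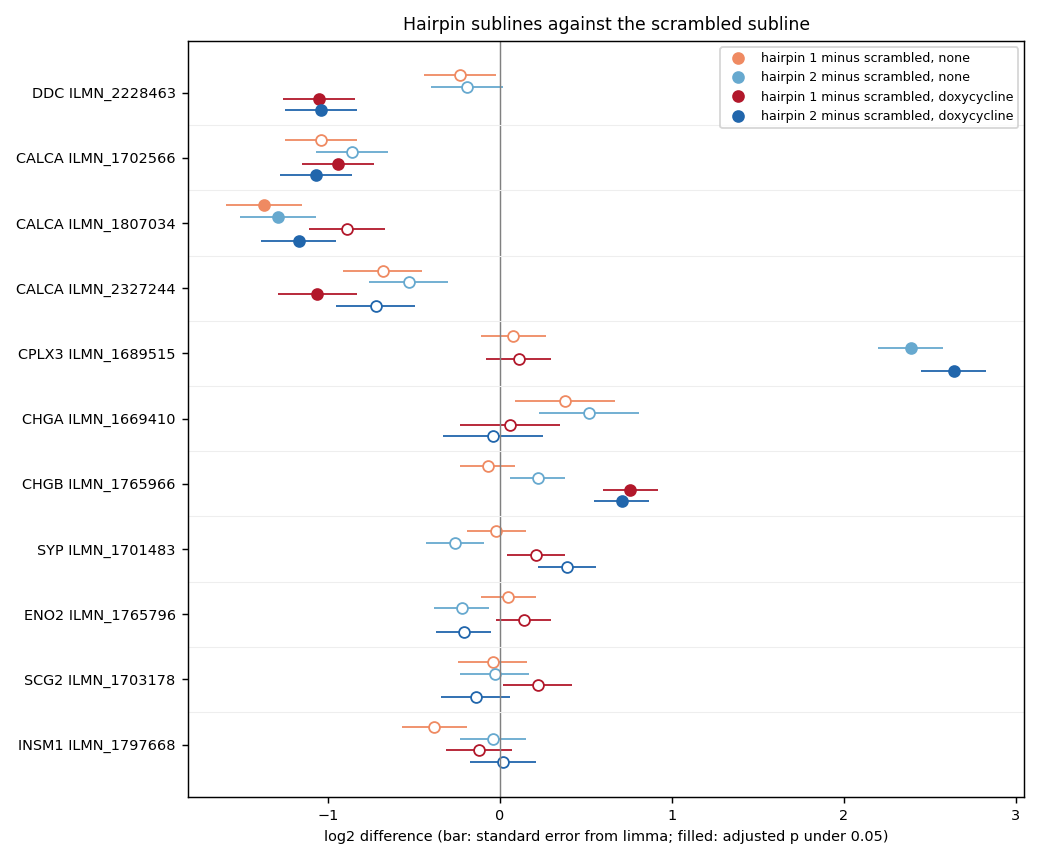
Difference in log2 intensity of each probe between a hairpin subline and the scrambled subline (horizontal axis), without and with doxycycline, with bars of 1 standard error from limma and filled points where the adjusted p was under 0.05. CPLX3 stands at 2.39 and 2.64 for hairpin 2, and DDC lies at -1.05 and -1.04 with doxycycline. The 3 CALCA probes lie left of 0 in every comparison, but ILMN_1702566 and ILMN_2327244 were kept through scrambled arrays alone.

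CHGA (chr14:92922664-92935285, gene ID 1113), the chromogranin most used as a serum and tissue marker, was above background on 2 of 12 arrays, the first replicates of uninduced hairpin 1 (5.46) and uninduced hairpin 2 (5.24). The other hairpin arrays read 4.57 to 5.07, and the scrambled arrays 5.39 and 4.47 with doxycycline and 4.65 and 4.62 without. The spread within groups was as wide as that between them. SCG2 (chr2:223596940-223602361, gene ID 7857), a granin that gives rise to secretoneurin, was above background on all arrays, at 5.51 to 6.15. It read 5.51 and 5.53 in induced hairpin 2 cells, against 5.85 and 6.04 in uninduced ones. This was the largest SCG2 response (-0.42, adjusted p = 0.380), and it did not pass.

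Of 21 kept probes for dense-core granule proteins and prohormone processing, 0 passed in any doxycycline response (limma). By unadjusted p under 0.05 these were 3 with hairpin 1, 7 with hairpin 2 and 0 in the scrambled subline, against 11.1%, 13.9% and 9.52% of all probes. The median change was 0.18 with hairpin 1 and -0.21 with hairpin 2, against 0.01 and 0.00 for all probes. FURIN, a prohormone convertase, and CPE, carboxypeptidase E, had the smallest p among the genes that are not granins here, with mean hairpin responses minus scrambled of 0.82 (adjusted p = 0.239) and 0.64 (adjusted p = 0.257). CPE was 0.68 log2 units higher in induced hairpin 2 than in induced scrambled cells (adjusted p = 0.0426), a call kept in 3 of 12 fits without 1 array (adjusted p up to 0.269) and lost with no filter (0.0532).

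ENO2 (chr12:6914580-6923697, gene ID 2026) encodes the neuronal enolase, a glycolytic enzyme. It read 10.02 and 10.20 in hairpin 1 cells with doxycycline, against 9.92 and 10.02 without, and 9.74 and 9.79 in hairpin 2 cells with doxycycline, against 9.84 and 9.57 without. Scrambled cells read 10.00 and 9.95 with doxycycline, against 9.99 and 9.86 without. The whole range was 0.63 log2 units, and the 3 responses were 0.14, 0.06 and 0.05, with intervals within -0.29 to 0.49. INSM1 (chr20:20368104-20370949, gene ID 3642), a zinc-finger transcription factor of neuroendocrine differentiation, was above background on 6 of 12 arrays, at 4.77 to 5.57 over all arrays. Its responses were -0.14, -0.34 and -0.40 (adjusted p = 0.851, 0.460 and 0.531), in the same direction in all 3 sublines, and did not pass.

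Of 26 neuroendocrine transcription factors and other regulators on the array, 8 were above background on all arrays, 6 on some and 12 on none. The 8 were POU3F2, ONECUT2, EZH2, PEG10, SRRM4, ISL1, RCOR2 and HES6. Of the 20 kept probes of this list, of 12 genes, 0 passed in any comparison (limma). By unadjusted p under 0.05 these were 3 with hairpin 1, 8 with hairpin 2 and 5 in the scrambled subline, against 11.1%, 13.9% and 9.52% of all probes. In the mean hairpin response minus scrambled they were 8, against 11.6%. Over the other comparisons too, the counts lay between 1 and 9, where 5.25% to 19.4% of all probes passed. The list's median change was -0.15 with hairpin 1, -0.22 with hairpin 2 and 0.03 in the scrambled subline. It was -0.35 in the mean hairpin response minus scrambled, against 0.01 for all probes. The smallest p in the mean hairpin response minus scrambled was that of PAX6, whose probes stood on opposite sides of 0, at 1.02 (adjusted p = 0.169) and -0.72 (adjusted p = 0.232). Of the neuronal cytoskeleton and adhesion genes, 1 of 23 kept probes fell with hairpin 1 and 2 of 23 with hairpin 2, where 0.589% and 0.970% of all probes were called. TUBB2B, a beta-tubulin, read 6.83 and 6.81 in hairpin 1 cells with doxycycline, against 8.13 and 7.75 without, and 6.50 and 6.43 in hairpin 2 cells with doxycycline, against 7.90 and 7.48 without. In scrambled cells TUBB2B read 7.44 and 8.15 with doxycycline, against 8.39 and 8.20 without, so that induced arrays were below uninduced ones in all 3 sublines. The TUBB2B responses were -1.12 (adjusted p = 0.0486), -1.23 (adjusted p = 0.0219) and -0.50 (adjusted p = 0.511), and the calls held in 2 and 8 of 12 fits without 1 array (adjusted p up to 0.285 and 0.216). The hairpin 1 call was lost under median scaling (adjusted p = 0.116) and with no filter (0.120), and the hairpin 2 call with no filter (0.0639). Induced TUBB2B levels minus induced scrambled ones were -0.97 for hairpin 1 (adjusted p = 0.0410) and -1.33 for hairpin 2 (adjusted p = 0.00576), and the hairpin 1 difference was lost under median scaling and with no filter.

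TUBB3, the neuronal beta-tubulin, read 9.25 and 9.64 in hairpin 2 cells with doxycycline, against 10.24 and 10.17 without (-0.76, adjusted p = 0.0465). KIF5C, a kinesin heavy chain, read 8.39 and 8.35 in uninduced hairpin 2 cells, against 7.66 and 7.45 in uninduced scrambled cells (0.82, adjusted p = 0.04998, just under the threshold). Both calls were lost whichever of the 12 arrays was left out (adjusted p of 0.0554 to 0.306 for TUBB3 and 0.0557 to 0.295 for KIF5C) and under median scaling (0.190 and 0.0679). With doxycycline KIF5C read 8.63 and 8.44 in hairpin 2 cells, against 7.68 and 7.81 in scrambled cells (0.79, adjusted p = 0.0117). That difference held in 10 of 12 fits without 1 array, being lost without hairpin 2 replicate 1 or scrambled replicate 1 (adjusted p up to 0.119), and in 8 of 8 other settings. DPYSL3, a dihydropyrimidinase-like protein of growing axons, read 9.26 and 9.33 in induced hairpin 1 cells, against 9.92 and 10.08 in induced scrambled cells (-0.70, adjusted p = 0.0387). The DPYSL3 call was kept in 6 of 12 fits without 1 array (adjusted p up to 0.214) and lost under median scaling (0.359). GAL, the neuropeptide galanin, read 6.85 and 7.05 in hairpin 1 cells with doxycycline, against 7.74 and 7.93 without (-0.89, adjusted p = 0.0228). It read 7.40 and 7.41 in hairpin 2 cells with doxycycline, against 7.69 and 7.93 without (-0.40, adjusted p = 0.267), and 7.99 and 8.11 in scrambled cells with doxycycline, against 7.80 and 7.82 without. The groups of GAL did not overlap in any subline, which is common with 2 arrays a group. Its call with hairpin 1 was lost without any 1 of the 4 hairpin 1 arrays (adjusted p up to 0.219) and under median scaling. GAL was the 1 of 6 kept neuropeptide probes that passed with hairpin 1, and 0 passed with hairpin 2 (limma; 2 by unadjusted p under 0.05), where 0.589% and 0.970% of all probes were called. The hairpin 1 response of GAL minus its hairpin 2 response was -0.48 (adjusted p = 0.490) and did not pass. In induced hairpin 1 minus induced scrambled cells GAL was -1.10 (adjusted p = 0.00193) and NMB, neuromedin B, -0.83 (adjusted p = 0.0187). GAL also passed in induced hairpin 2 minus induced scrambled cells, at -0.64 (adjusted p = 0.0403), a call kept in 6 of 12 fits without 1 array (adjusted p up to 0.186). All 3 calls were lost under median scaling (adjusted p = 0.0528, 0.213 and 0.469).

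**Figure D5:**
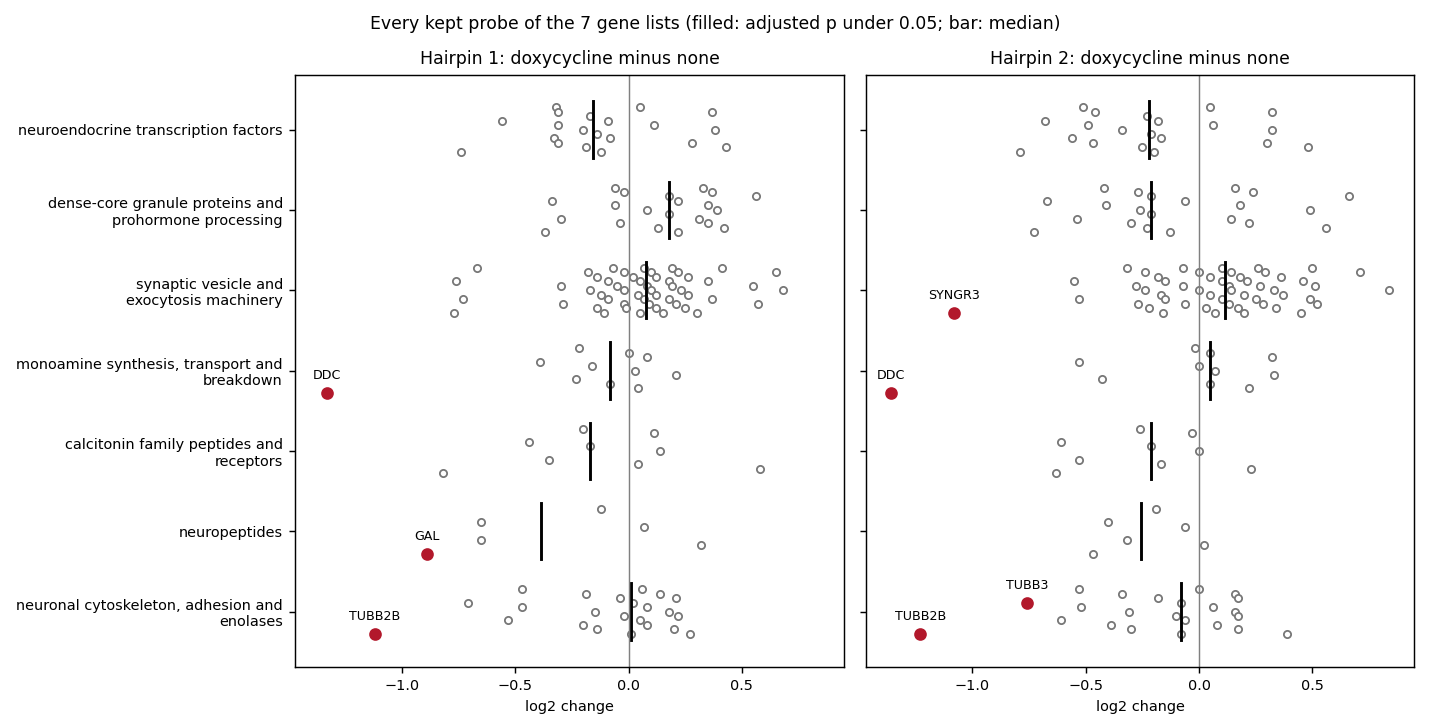
Change in log2 intensity with doxycycline (horizontal axis) of every kept probe of the 7 gene lists, in the hairpin 1 and hairpin 2 sublines, with filled points where the adjusted p was under 0.05 and a bar at each list's median. DDC fell in both panels, GAL in the hairpin 1 panel, SYNGR3 and TUBB3 in the hairpin 2 panel and TUBB2B in both.

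Over the 12 arrays, the probes of other genes most like DDC were those of ALB (r = 0.961), MUC13 (0.956) and RAD54B (0.952), by Pearson correlation of log2 intensity. Those most like CALCA were LEF1 (0.940), STOM (0.934) and CEACAM6 (0.921), and those most like CPLX3 were PDLIM3 (0.926), ATP7A (0.890) and TBCC (0.881). MED16 (0.955), RADIL (0.940) and CA8 (0.920) followed CHGB, and PSAP (0.931), TRMO (0.903) and GLMP (0.897) followed SYP. For ENO2 they were CDC42SE2 (0.888), ZSWIM7 (0.883) and DBNDD1 (0.848), for SCG2 FXYD1 (0.895), ASB6 (0.869) and MAP4 (0.860), for INSM1 ETV4 (0.912), ZNF155 (0.866) and ACIN1 (0.863), and for CHGA DEPDC5 (0.856), SNORD21 (0.847) and ENHO (0.844). The 12 arrays fall into 6 groups that share sublines and treatment, so these values describe the pattern and carry no test.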

How the data were processed

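RNA of 12 samples of 22Rv1 sublines was biotin-labelled (500 ng) and hybridised to bead arrays, per the labels' protocols. The deposited non-normalized table holds each probe's intensity and its detection p-value against control beads, made by the authors with BeadStudio per the submitters' processing notes. The deposited series matrix holds log2 values normalized by the authors with Partek, per the same notes, and matched the log2 intensities after quantile normalization to within a mean of 1.09e-05. No version is given in the sources used here.

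Starting from the non-normalized table (1479 blank lines left out), limma 3.58.1 in R 4.3.3 corrected background with normexp (neqc, offset 16), quantile-normalized and took log2. A linear model of the 6 groups, moderated by empirical Bayes (prior df 7.31, residual df 6, typical residual SD 0.19), was fitted to 19172 probes, with two-sided p-values adjusted by Benjamini and Hochberg over all of them and a threshold of 0.05. Of all probes, 30113 had 1 gene symbol, 8 several and 17202 none listed, and each probe was tested by itself. There were 10 planned comparisons and 2 added later. The members and gene lists were chosen with earlier results of these data known. The named genes are the members, HNF4G, the 3 probes most like each member, and list genes past the threshold or otherwise with the smallest p. The control genes ACTB, GAPDH and B2M did not pass in the doxycycline responses, but they were not flat. With hairpin 2 the B2M probes changed by 0.67 and 0.49 (limma, adjusted p = 0.0848 and 0.169) and the ACTB probes by -0.23 to -0.35. Alternatives were median scaling, no background correction, the authors' values, other filters, 1 probe per gene, array weights (statmod 1.5.0), a replicate block and leaving out each array. No background correction and the authors' values are nearly the same values, so a result under both is not 2 separate checks. The code was tested on simulated data. The 2 arrays per group limit the precision of every value.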

Additional observations from a re-analysis of the deposited data

How the results depend on the processing

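No change or difference that was called reversed its direction under any setting. The count of called probes among the 11 moved as follows. In the hairpin 2 response it was 2, against 1, both without background correction and with the authors' values, SYP joining DDC. For uninduced hairpin 1 minus scrambled it was 2 under median scaling and 0 with no filter, against 1, and for uninduced hairpin 2 minus scrambled 1 with no filter and 1 with detection on at least 6 arrays, against 2. For uninduced hairpin 1 minus hairpin 2 it was 0 with detection on at least 6 arrays, where CPLX3 was not tested, against 1. For induced hairpin 1 minus scrambled it was 2 without background correction, 2 with the authors' values, 2 with no filter and 3 each under median scaling, with detection on at least 6 arrays and with 1 probe per gene, against 4, and for induced hairpin 2 minus scrambled 3 with detection on at least 6 arrays, 4 with 1 probe per gene and 6 under median scaling, SYP joining, against 5. The filters change which probes are tested; the cause of the other moves was not tested. Leaving out 1 array gave 0 to 1 in the hairpin 1 response, 0 to 1 in the hairpin 2 response, 0 to 2 and 1 to 2 for uninduced hairpin 1 and hairpin 2 minus scrambled, 1 to 1 between the uninduced hairpin sublines, 0 to 4 and 2 to 5 for the induced comparisons, and 0 to 0 in the other comparisons. A lone array left in a group is assumed to vary like the other groups. Same-numbered replicates did not deviate together (r = -0.0344 to 0.0609 over 15 pairs of groups), and a replicate block left every count of the 11 probes as it was (1 in each hairpin response, 1, 2 and 1 between uninduced sublines, 4 and 5 between induced ones), while the count over all probes went to 99 with hairpin 1 and 175 with hairpin 2, against 113 and 186. Among list genes the block left the hairpin 1 response of TUBB2B (adjusted p = 0.0657), the hairpin 2 response of TUBB3 (0.0582), uninduced KIF5C (0.0682), and induced TUBB2B with hairpin 1 (0.0543) and CPE with hairpin 2 (0.0533), each minus scrambled, above the threshold. Over all probes the hairpin 2 response called 142 (median scaling) to 597 (authors' values) across the other settings with all arrays. Median scaling moved the median of all probes to 0.23 in the mean hairpin response minus scrambled, to 0.24 and 0.28 in the induced comparisons and to -0.18 between uninduced hairpin sublines, against 0.01, 0.01, 0.01 and -0.01, and the directions of the called probes stayed. Signal near background limits DDC, CHGA, INSM1, CPLX3 and 2 CALCA probes, whose low values are only bounded.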
